A study of Caenorhabditis elegans with 2 samples.

Results

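The col genes of Caenorhabditis elegans encode most of the collagens of its cuticle, and their promoters were examined in peak lists from a chromatin immunoprecipitation with sequencing (ChIP-seq) of DAF-8. All protein-coding genes of the Ensembl annotation of WBcel235 (the assembly also called ce11) whose name begins with col- were taken, which gave 156 of 19985 protein-coding genes. Each gene was given the strongest peak whose summit lay in its promoter window, which reached from 1000 bp before to 250 bp after any of its transcript starts. Of the 156 col genes, 112 had such a peak and 44 had none. The rule uses gene names and no measured value.

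The worms were whole L4 larvae, aged 47 hours, of strain OP790, grown from L1 larvae that had been starved after bleaching. The strain carries the transgene wgIs790, in which daf-8 is fused to the tags TY1 EGFP 3xFLAG, together with unc-119(+), a marker that rescues movement, in an unc-119 (tm4063) background. An antibody to green fluorescent protein brought down the tagged protein, and both samples are biological replicates of this 1 group. How the 2 cultures were separated is not stated. Worms lacking the tagged protein were not analysed here, and of the control named in the labels the kind is not stated. Both replicates carried the transgene and the unc-119 allele, so no difference can be attributed to either of them. The whole body was extracted, so sites in epidermal cells and sites in other cells cannot be told apart, and no cell type marker is measured by these lists.

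Cuticle collagens are made by the epidermis, exported, trimmed and cross-linked into the outer coat that the worm replaces at every moult. Each chain carries long repeats of a triplet that begins with glycine, which lets 3 chains wind around each other. Their genes are switched on in waves within each moulting cycle, and some are used at one stage only, such as the dauer larva or the adult. DAF-8 is a receptor-regulated SMAD, a protein that carries the signal of a TGF-beta ligand to the nucleus, and in C. elegans it acts in the pathway that keeps larvae from entering the dauer stage. SMAD proteins in animals bind the short sequence GTCT and its reverse complement AGAC.

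Col promoters carried peaks about as often, and of about the same signal, as those of other genes. A ranked peak lay in the window of 71.8% of col genes (112 of 156, 95% Wilson interval 64.3 to 78.3%), against 77.1% of all protein-coding genes. A gene with many annotated starts has a wider window, and 87.2% of col genes had 1 start, against 72.6% of all protein-coding genes. Among genes with 1 start, 72.1% of col genes (98 of 136, interval 64 to 78.9%) and 73.8% of all such genes had a peak. The Wilson intervals cover counting error over genes only, and the depth of sequencing is unknown because the lists hold no read counts.

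Few promoter peaks of any kind passed the threshold on the irreproducible discovery rate (IDR), which rises as the rank of a peak repeats less well between lists. In the list comparing the true replicates, the authors kept peaks at an IDR up to 0.01, called thresholded peaks here. A thresholded summit lay in the window of 1 col gene, col-94, or 0.641% (interval 0.113 to 3.54%), against 0.495% of all protein-coding genes. In the list from pooled reads the only one was again col-94, against 0.595% of all protein-coding genes. Neither replicate alone gave a thresholded summit at a col gene, so the share may still reach 1.92% (3 counts of 156), and the shares of all protein-coding genes were 0.15% for replicate 1 and 0.18% for replicate 2.

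Raising the limit to an IDR of 0.05 still left col-94 alone in the true-replicate list, against 1.43% of all protein-coding genes. In the pooled list 4 col genes, col-34, col-94, col-129 and col-132, reached that level, or 2.56% (interval 1 to 6.41%), against 1.74% of all protein-coding genes. The top 10% of all promoters by signal began at 34.81, and 15 col genes lay above it, or 9.62% (interval 5.91 to 15.3%), against 10% of all protein-coding genes by construction. These shares lie near the background in every list, with the background inside the interval where one is given.

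The signal of a peak is the authors' value, and no source used here says how it was scaled for depth. Among genes with a peak, the median signal was 21.66 for the 112 col genes, against 22.58 for the 15413 protein-coding genes with a peak. The middle 50% of genes lay from 16.64 to 29.73 in col genes and from 16.56 to 29.39 in all protein-coding genes. With 1 start only, the medians were 21.35 in col genes and 21.42 in all protein-coding genes. The median over all 101032 ranked peaks of the genome, in or out of promoters, was 17.01. The middle parts of both distributions thus nearly coincided, while the highest signal was 61.76 in col genes and 185 in all protein-coding genes.

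**Figure D1:**
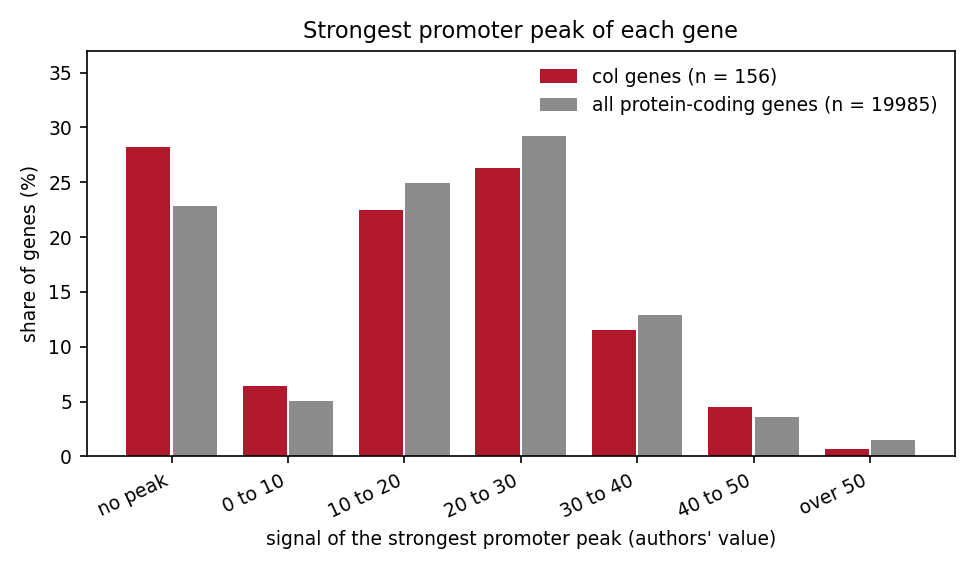
Share of genes (%, y axis, from 0) by the signal of the strongest promoter peak (authors' value, x axis), for the 156 col genes (red) and all 19985 protein-coding genes (grey). No peak was found for 28.2% of col genes and 22.9% of all genes, and 26.3% of col genes and 29.2% of all genes lay between 20 and 30.

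The strongest col promoter was that of col-94. Its peak, chrIII:10987989-10988312, had a signal of 61.76 in the pooled reads, 27.03 in compared list 1 and 36.09 in compared list 2, and an IDR of 0.00882. Both lists therefore held a high value, and the peak ranked 277 of 101032 by signal. The summit lay 278 bp before the start of col-94, inside an exon of dhc-4, a gene named as a dynein heavy chain. No other protein-coding gene had that summit in its window and no small RNA gene (tRNA, snRNA, snoRNA or rRNA) lay within 200 bp. In replicate 1 alone and replicate 2 alone the same promoter had signals of 27.03 and 36.09, without passing the IDR threshold in either. The IDR was 0.494 in replicate 1 alone and 0.0339 in replicate 2 alone. These signals equal the values of the compared lists and add nothing to them.

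Just outside the threshold, the col genes differed in what lay under a low IDR. The lowest IDR after that of col-94 was 0.0563, at col-160, where the signal was 2.316 although the compared lists held 24.36 and 23.31. A stronger ranked peak of signal 42.05 overlapped this one, with its summit 421 bp inside the gene and so outside the window, and it carried the same values from both lists. The next lowest were 0.0890 at col-181 and 0.0951 at col-65. A signal below both list values was found at 6 of 112 col genes (5.36%), against 1.67% of all protein-coding genes with a peak. At col-150, named after its values were seen, an overlapping peak of signal 37.59 likewise lay 444 bp inside the gene.

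The DNA around the strongest summits of 6 col genes is shown because col-94 is the only thresholded member, col-132, col-129 and col-34 passed the looser limit in the pooled list, and the summits of col-129, col-181 and col-39 lie in collagen exons. Each runs 50 bp either side of the summit, on the forward strand of WBcel235 and 5′ to 3′, with GTCT and AGAC in capitals.
col-94, chrIII:10988101-10988201: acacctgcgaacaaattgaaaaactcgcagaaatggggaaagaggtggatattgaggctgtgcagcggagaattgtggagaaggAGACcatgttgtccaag
col-132, chrIV:13091026-13091126: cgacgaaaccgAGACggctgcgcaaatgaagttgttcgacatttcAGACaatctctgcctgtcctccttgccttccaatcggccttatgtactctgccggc
col-129, chrIV:12109406-12109506: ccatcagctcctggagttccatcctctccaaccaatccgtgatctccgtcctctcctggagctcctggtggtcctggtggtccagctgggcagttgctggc
col-34, chrIV:4245185-4245285: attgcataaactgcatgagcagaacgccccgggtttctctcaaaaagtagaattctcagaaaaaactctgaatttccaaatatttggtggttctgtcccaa
col-181, chrX:12105228-12105328: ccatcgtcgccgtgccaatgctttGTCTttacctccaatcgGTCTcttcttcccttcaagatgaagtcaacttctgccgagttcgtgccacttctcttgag
col-39, chrII:10704121-10704221: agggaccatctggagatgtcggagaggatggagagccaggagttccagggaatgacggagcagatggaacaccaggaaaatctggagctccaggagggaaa
The stretch at col-94 holds 1 such element, those at col-132 and col-181 hold 2 each, and those at col-129, col-34 and col-39 hold none.

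Below col-94 the signal dropped in small steps, and most of the strong peaks lay between genes. At col-132 the summit was 9 bp before the start, with a signal of 49.91 and list values of 12.25 and 37.2. The peak of col-129 had a signal of 47.87 and list values of 37.64 and 10.8, with its summit 155 bp inside its own exon. The compared lists thus disagreed at both genes, and in opposite directions. At col-34 the signal was 45.92 with list values of 25.75 and 18.07, 625 bp before the start. For col-65 it was 44.81 with 25.48 and 19.8, and for col-158 it was 43.14 with 19.44 and 23.84, at a summit in an exon of D2023.6. At these 3 genes the lists differed by under 2 times.

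The next genes lay between 37 and 43 in signal. The summit of col-181 (42.61) lay 132 bp inside its own exon, and that of col-185 (40.01) lay 964 bp before the start and within 200 bp of the tRNA gene WBGene00014413. Of the 112 col genes with a peak, col-185 was the only one whose strongest summit was that close to a small RNA gene. The list values of col-110 (39.02) were 8.113 and 26.3, and those of col-125 (38.76) were 21.29 and 18.42. The summit of col-39 (37.42) lay in an exon of col-79, a neighbouring collagen gene, and also in the window of dph-2. That of col-43 (37.18) was shared with sth-1, whose start was nearer.

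The other genes among the 25 highest ranged from 37.89 at col-45 to 30.69 at col-40. In order of signal they were col-45, col-119, col-36, col-146, col-50, col-51, col-167, col-161, col-2, col-63, col-162, col-33 and col-40. The genes col-50 and col-51 share a single peak of signal 34.56, 700 bp before the start of col-50 and 595 bp before that of col-51, and cannot be told apart. The peak of col-146 (34.57) was shared with idpc-3. The gene col-2, a collagen of the dauer cuticle, had a signal of 33.03 and list values of 15.36 and 17.34, in a promoter shared with ndc-80, which encodes a kinetochore protein. Of the 25 summits, 15 lay between genes, 6 in another gene and 4 in the col gene itself. A promoter peak was present in both replicates alone for 21 of the 25. The 25 were chosen by signal in the pooled reads of these same replicates, so this count is no separate support. The share for equally strong promoters of other genes is not given here.

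**Figure D2:**
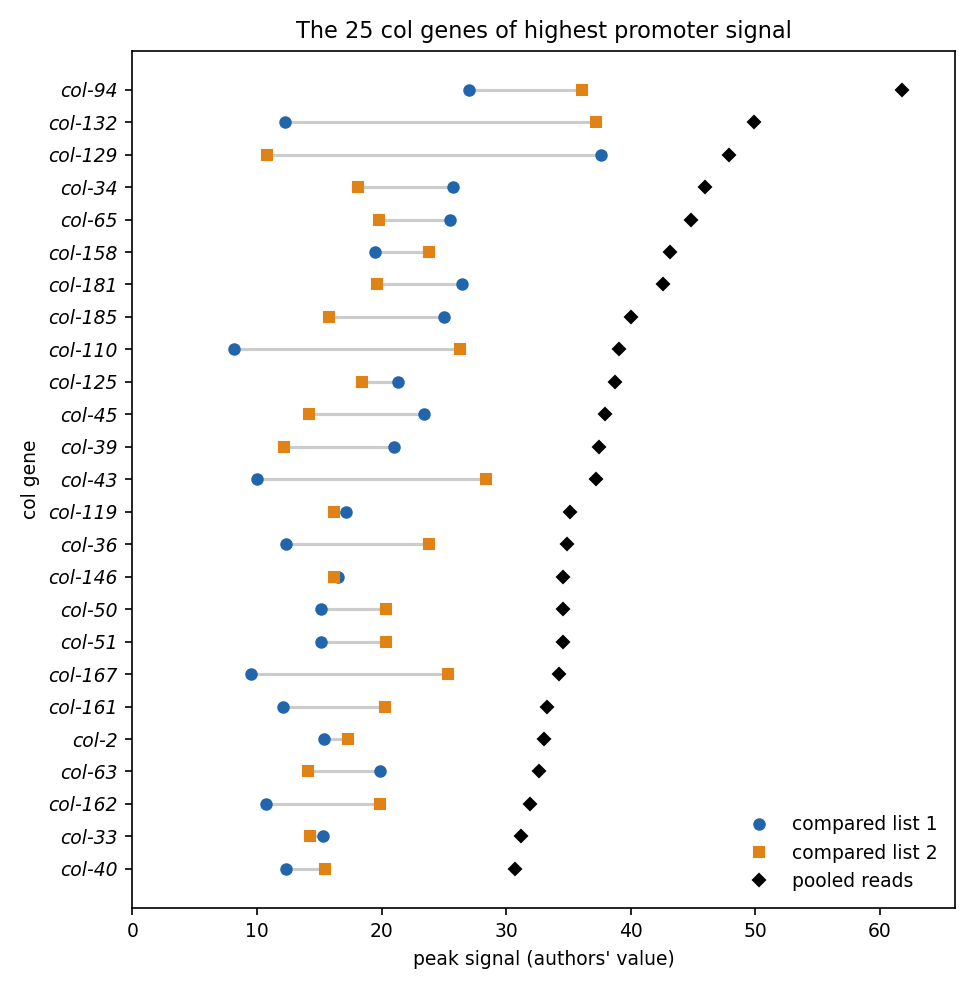
Peak signal (authors' value, x axis) of the 25 col genes of highest promoter signal (y axis), in pooled reads (black), compared list 1 (blue) and compared list 2 (orange), with a grey line between the lists. The lists differ by over 2 times at 5 genes, which include col-132, col-129 and col-110, while col-94 is high in both.

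Thresholded peaks also lay in the bodies of col genes, outside the promoter window, and these genes were named after the values were seen. A thresholded summit was inside 3 col genes, col-52, col-72 and col-85, or 1.92% (interval 0.656 to 5.5%), against 0.46% of all protein-coding genes. The col genes were shorter, with a median length of 1220 bp against 2026 bp in all protein-coding genes. Counting summits inside or within 2000 bp of the gene gave 5 col genes, with col-94 and col-181 added, or 3.21% (interval 1.38 to 7.28%), against 1.72% of all protein-coding genes. Within 10000 bp the shares were 5.13% of col genes and 4.98% of all protein-coding genes.

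All 3 summits inside col genes were in introns. The peak in col-85, chrII:12494565-12494888, had a signal of 78.5, list values of 43 and 34.79 and an IDR of 0.0026. The peak in col-72, chrII:3521384-3521707, had a signal of 67.81, list values of 29.8 and 36.48 and an IDR of 0.00599. The peak in col-52, 514 bp from its start, had a signal of 66.54, list values of 38.71 and 27.49 and an IDR of 0.00783. These values are higher than that of the strongest col promoter, and both lists were high at each. Just beyond the end of col-181, by 56 bp, a summit reached 86.2 with list values of 24.95 and 61.86, an IDR of 0.00614, and in this case a thresholded peak in replicate 2 alone as well.

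A tRNA gene lay within 200 bp of 3 of these 4 summits, in col-72, in col-85 and beyond col-181. The ncRNA genes T21B4.18 and T21B4.19 also lay within 200 bp of the summit in col-85. No noncoding gene was annotated within 200 bp of the summit in col-52, where G and C made up 66.3% of the bases within 50 bp. For col-94, the only col promoter with a thresholded summit, no noncoding gene lay within 200 bp either. Whether the tRNA genes account for these peaks was not tested. The share of all thresholded summits that lie beside a tRNA gene is not given here, so the counts describe these summits only.

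The 3 summits beside tRNA genes are shown because the summit falls on or next to the tRNA gene and not on collagen coding sequence. The stretches run 50 bp either side of the summit on the forward strand of WBcel235, 5′ to 3′, with the bases inside the annotated tRNA gene in capitals.
col-72, chrII:3521496-3521596: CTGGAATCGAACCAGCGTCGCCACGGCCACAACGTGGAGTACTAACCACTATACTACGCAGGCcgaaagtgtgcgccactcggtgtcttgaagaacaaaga
col-85, chrII:12494677-12494777: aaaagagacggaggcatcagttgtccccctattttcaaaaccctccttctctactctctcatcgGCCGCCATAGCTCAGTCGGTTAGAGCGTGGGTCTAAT
col-181, chrX:12106108-12106208: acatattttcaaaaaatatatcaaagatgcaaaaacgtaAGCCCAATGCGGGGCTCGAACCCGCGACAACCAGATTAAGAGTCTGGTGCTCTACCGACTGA
The tRNA genes are WBGene00023160, WBGene00014524 and WBGene00014540, and they take up 63, 37 and 62 of the 101 bases shown. The summit lay 24 bp from the middle of the tRNA gene in col-72, 50 bp in col-85 and 25 bp beyond col-181.

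The rank of col promoters repeated weakly between the replicates, to about the same degree as that of other promoters. Across the 112 col genes Spearman's rho between compared list 1 and compared list 2 was 0.213, against 0.178 across 15413 protein-coding genes. The genes share both libraries and are not replicates, so rho is a description. The files do not say which replicate is list 1. For 57 of 74 col genes the value in list 1 equalled that of the strongest promoter peak of replicate 1 alone within 0.001, and none of 79 equalled that of replicate 2. For list 2, 57 of 79 equalled the value of replicate 2 alone and none of 74 that of replicate 1. Judged by these values alone, list 1 would be that of replicate 1.

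A promoter peak was found in replicate 1 alone for 81 col genes, or 51.9%, against 50.8% of all protein-coding genes. In replicate 2 alone one was found for 94, or 60.3%, against 55.2%. In the pooled list one was found for 121, or 77.6%, against 81.3%. The col share was thus the higher in each replicate alone and the lower in the pooled and true-replicate lists. Both replicates had one for 60 col genes, or 38.5%, against 34.3% of all protein-coding genes, and neither had one for 41 col genes, or 26.3%, against 28.3%. Where both had one, rho was 0.222 across the 60 col genes, against 0.235 across 6851 protein-coding genes. List 1 was the higher at 56 of 112 col genes, against 48.7% of all protein-coding genes. The lists differed by over 2 times at 35 col genes, or 31.2%, against 30.5% of all protein-coding genes. Replicate 1 alone had a median signal of 12.85 at col genes and 14.11 at all protein-coding genes with a peak there. In replicate 2 alone the median was 15.14 at col genes and 15.09 at all protein-coding genes.

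**Figure D3:**
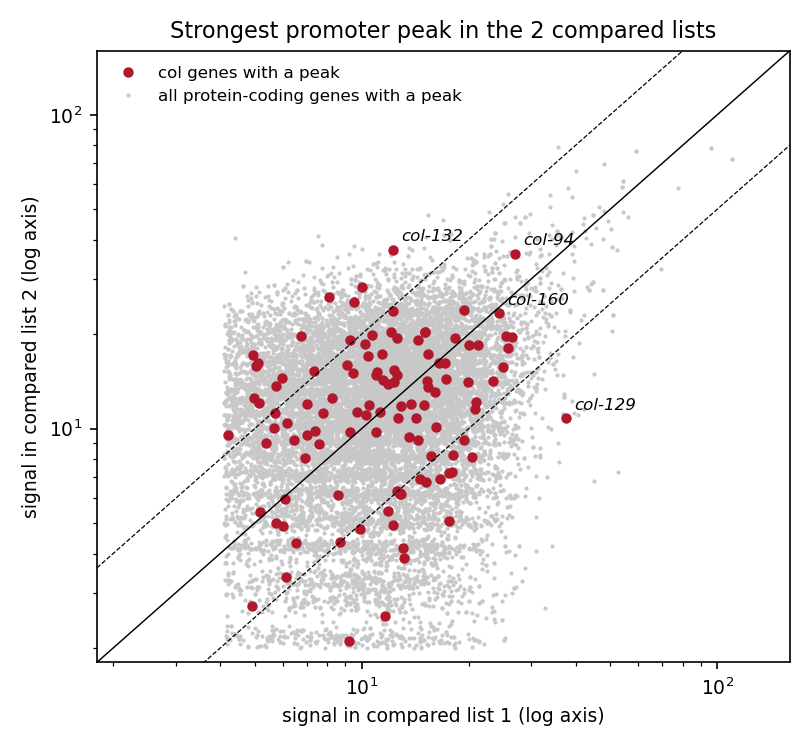
Signal of the strongest promoter peak in compared list 1 (x axis) and compared list 2 (y axis), both log axes, for the 112 col genes with a peak (red) and the 15413 protein-coding genes with a peak (grey). The solid line marks equal values and the dashed lines a 2-fold difference; col genes are spread through the grey cloud, with rho of 0.213 against 0.178 for all genes.

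Collagens known for their stage or for their use as markers were spread from the upper part of the range down to no peak. The adult-specific collagen col-19 had a signal of 21.45, with list values of 10.43 and 16.99, at a summit in its own intron. The gene col-7 had 29.65, from a summit in an exon of C15A11.4, whose start was nearer. For col-41 the signal was 29.85, in an exon of ucr-2.2. These values are ordinary for a promoter peak, as the median over all protein-coding genes was 22.58.

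The genes chosen by name and not yet described lay below that median or had no peak. The adjacent genes col-141 and col-142 had signals of 18.07 and 22.08, and the peak of col-142 lay in an exon of col-141. The signals of col-99, col-17 and col-10 were 20.38, 16.81 and 16.02, and that of col-12 was 8.298. No peak was found in the window of col-13, col-14 or col-120, although the pooled list had one of signal 15.69 at col-14. The name col-6 was not among the 156 genes. Of the 44 col genes with no peak in the true-replicate list, 7 had one in replicate 1 alone, 15 in replicate 2 alone and 17 in the pooled list. The matching shares of all protein-coding genes are not given here, so these counts are a description only.

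In the main setting the median col summit lay farther upstream than that of all protein-coding genes. The median position of the summit, relative to the nearest start of its gene, was -450.5 bp in col genes and -337 bp in all protein-coding genes, where negative values are upstream. More than 500 bp upstream lay 52 of 112 col summits, or 46.4%, against 37.1% in all protein-coding genes. From the start to 250 bp downstream lay 20, or 17.9%, against 23.3%. The middle 50% of col summits ran from -746 to -93.5 bp, so single genes covered the whole window. The col median depended on the setting, and was -378 bp without the 18 genes whose peak also lay in the window of another gene. Distances run to the nearest start, so extra starts can shorten them. Of col genes 87.2% had 1 start, against 72.6% of all protein-coding genes. The median of all protein-coding genes is not given for other settings, so the difference was not checked there.

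**Figure D4:**
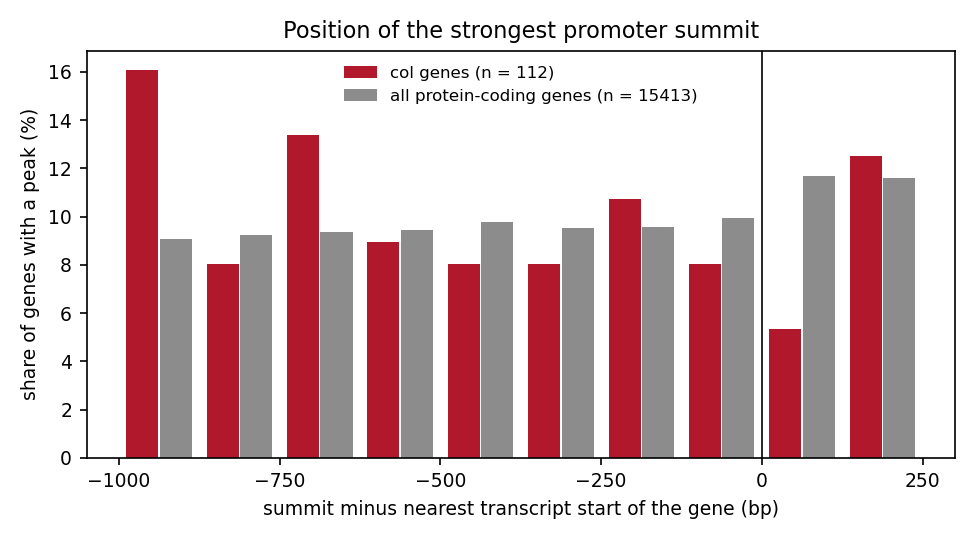
Share of genes with a peak (%, y axis, from 0) by the distance of the strongest summit from the nearest start of the gene (bp, x axis, negative is upstream, bins of 125 bp), for 112 col genes (red) and 15413 protein-coding genes (grey). The bin farthest upstream holds 16.1% of col genes and 9.08% of all genes; the first bin inside the gene holds 5.36% and 11.7%. Summits beyond 250 bp, which count through a further start of the gene, are not drawn.

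The strongest col summits fell between genes, in other genes and in the col genes themselves. Matching shares over all protein-coding genes are not given here, so the counts describe the col genes only. Of the 112, 53 lay between genes, 36 in another gene (25 in an exon and 11 in an intron) and 23 in the col gene itself (16 in an exon and 7 in an intron). The col gene had the nearest protein-coding start for 96 of 112. The median signal was 20.88 between genes, 22.64 in another gene and 21.45 in the col gene itself. The 3 medians were close to each other.

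By chromosome, the share of col genes with a peak was 87.5% on II (21 of 24), 83.3% on III (10 of 12), 81% on I (17 of 21), 67.7% on V (21 of 31), 66.7% on X (18 of 27) and 61% on IV (25 of 41). The shares of all protein-coding genes were 78.4%, 82.4%, 80.4%, 72.3%, 79% and 74.7% in the same order. Chromosome IV, which holds more col genes than any other, had the lowest share. Of the 50 col genes with another col gene within 5000 bp, 38 had a peak (76%), and of the 106 others 74 did (69.8%). No col gene was close to the loci named in the transgene, the nearest being 73204 bp from unc-119 (col-92) and 339461 bp from daf-8 (col-63).

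Ranked summits were not denser in col windows. The windows held 0.931 summits per kb in col genes, 1.02 in all protein-coding genes and 1.01 over the 6 chromosomes. In this list of 101032 ranked peaks, a summit lay in the promoter window of 77.1% of all protein-coding genes.

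Base composition moved with the peaks in col genes and in other genes. Within 50 bp of the summit the median share of G and C was 39.6% in col genes and 38.61% in all protein-coding genes. The promoter window of the first listed start of each gene had a median of 36.49% in col genes with a peak and 34.61% in col genes with none. Over all protein-coding genes the medians of this window were 35.41% with a peak and 33.57% with none. Spearman's rho between G and C at the summit and signal was 0.3 across 112 col genes and 0.254 across 15413 protein-coding genes. The points share both libraries, and the part of base composition in the signal was not tested. The share of 31-base words found elsewhere in the genome had a median of 0% both in col windows with a peak and in those with none. The means were 4.05% with a peak and 5.44% with none, and the highest values were 32.7% and 55.3%.

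The SMAD element was about as dense at col summits as beside them. GTCT or AGAC occurred 0.615 times per 100 bp within 50 bp of the summit and 0.589 times in flanks 300 to 400 bp away, a difference of 0.0268 ± 1.09 (SD, 111 distinct summits). It was higher at the summit in 41 cases and lower in 42. Over 13986 summits of all protein-coding genes the difference was 0.078 ± 0.916, higher in 4704 and lower in 5228. In col genes the sign of the difference turned when either replicate was used alone.

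In promoters taken from 250 bp before to 50 bp after the start, GTCT or AGAC was present in 84.6% of the 156 col genes, against 77% of 19973 protein-coding genes. It was present in 88.4% of the col genes with a peak and 75% of those with none. The matching shares of all protein-coding genes with and without a peak are not given here, so this split is a description only. Summits more than 250 bp before the start lie outside these promoters. The palindrome GTCTAGAC, which overlaps both elements, was in no col promoter and in 0.295% of all promoters. AGATAA or TTATCT, a sequence of the kind bound by GATA factors of the epidermis, was in 26.3% of col promoters and 21.2% of all. AGGTCA or TGACCT, of the kind bound by nuclear receptors, was in 13.5% of col promoters and 8.27% of all. These letters are matches on either strand and say nothing of binding.

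Among the letters searched, the widest gap between col genes and other genes was in the core promoter. TATAAA or TTTATA was present on either strand in 66% of col promoters, against 37.9% of all promoters. On the strand of the gene, beginning 60 to 15 bp before the start, TATAAA was found in 63 col genes, or 40.4%, against 8.71% of all protein-coding genes. This is the place of a TATA box, the element at which the general transcription machinery is positioned. A peak was present in 74.6% of the 63 and in 69.9% of the 93 others, with median signals of 20.88 and 22.34. The difference was not tested.

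The coding sequences of the col genes carried the glycine repeats of collagens, with 1 exception. The longest run of triplets beginning with a glycine codon had a median of 21 in col genes, against 2 in all protein-coding genes, and glycine codons made up a median of 20.75% against 4.854%. Proline codons made up 14.96% against 4.33%, and the median length was 304 codons against 329. A run of 10 or more occurred in 203 protein-coding genes, of which 155 were col genes. The gene without one was col-17, whose annotated frame had 2 glycine codons of 277. Read in frame 3, which starts at its base 3, the same stretch held 55 glycine codons of 276, with 4 stop codons, so the repeat lies outside the annotated frame of col-17.

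Other genes of the cuticle, other collagens, and regulators of the epidermis and moult give the col genes their setting. None of them had a thresholded promoter summit, against 0.495% of all protein-coding genes, and in lists this small a count of 0 is near that share. The counts with a ranked peak below stand beside 77.1% of all protein-coding genes. Of the named cuticle collagens, such as the dpy, sqt, rol and bli genes in which mutations change body shape, 15 of 22 had a peak, with a median signal of 16.76 and none in the top 10%. Their highest values were 30.22 at dpy-7, a collagen of the furrows of the cuticle, 28.45 at mec-5, a collagen needed by touch neurons, and 26.04 at sqt-2. The median of the named cuticle collagens was therefore below 22.58, the value for all protein-coding genes with a peak. That of the col genes, 21.66, was close to it.

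The lists of genes that act on collagens or on the epidermis had higher medians, with the number of starts not matched. These lists were chosen with earlier results of these data known, so their medians describe the chosen genes only. A gene with more starts has a wider window. The median over all protein-coding genes with a peak was 22.58, and 21.42 with 1 start only. Of the enzymes that process and cross-link collagens, 15 of 20 had a peak, with a median signal of 25.77 and 4 in the top 10%. The highest were pdi-3 (46.13) and pdi-2 (44.08), which encode protein disulphide isomerases, and skpo-1 (43.15), which encodes a peroxidase. Of the regulators of the epidermis and moult, 18 of 20 had a peak, with a median of 29.14 and 7 in the top 10%. They were led by nhr-41 (57.73), nhr-23 (47.19), a nuclear receptor needed for moulting, and bed-3 (46.9). The summit at nhr-41 lay within 200 bp of the small RNA gene WBGene00023202. The compared lists held 20.66 and 28.26 at nhr-23, and 11.61 and 32.4 at bed-3. No peak of these genes passed the threshold, and the lowest IDR among those named was 0.033, at nhr-41.

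The cuticlins and other proteins of the apical matrix were close to the background. Of 16, 12 had a peak, with a median of 21.27 and 3 in the top 10%, led by mlt-9 (38.62), cut-5 (36.96) and noah-2 (34.85). The other collagens were cle-1, related to collagen XVIII of vertebrates, at 40.82, and let-2 and emb-9, the chains of collagen IV in basement membranes, at 29.01 and 14.5. These lists are small, and the difference between them and the col genes was not tested.

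**Figure D5:**
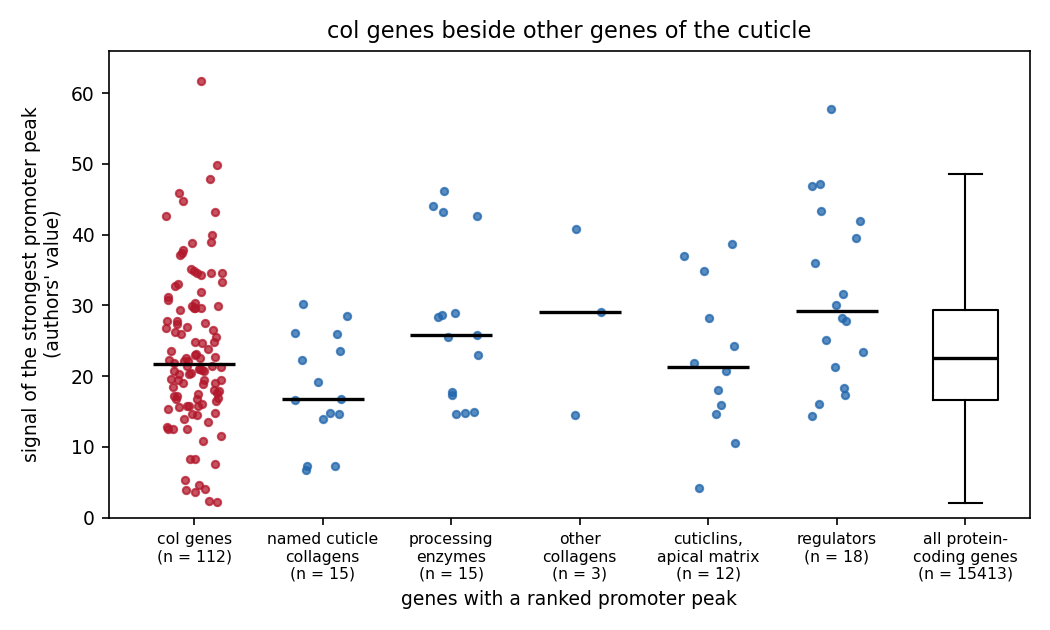
Signal of the strongest promoter peak (authors' value, y axis, from 0) for col genes (red), 5 other gene lists (blue) and all protein-coding genes. The lists hold genes of the cuticle, other collagens, and regulators of the epidermis and moult. For all protein-coding genes the box shows quartiles, the line the median, and whiskers reach to 1.5 times the quartile range. Each point is a gene with a peak and bars are medians, which run from 16.76 in named cuticle collagens to 29.14 in regulators, with 21.66 in col genes.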

How the data were processed

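Peaks were compared by the authors as pairs of lists and ranked by irreproducible discovery rate (IDR), on ce11 per the labels. No source used here names the aligner or the peak caller. The deposited signal of a peak and the deposited −log10 of its IDR were used as the authors gave them. The true-replicate ranked list was the main list. Summits were placed with Ensembl release 115, and sequence came from RefSeq for WBcel235. Coordinates are counted from 1. Shares of col genes stand beside those of all protein-coding genes, with no test, since there is 1 group of 2 replicates. Scripts ran in Python 3.11 with numpy 2.4.6, pandas 2.3.3 and scipy 1.17.1, and the rule that gives a gene its strongest peak was tested on simulated data. The members and lists were chosen with earlier results of these data known. Named genes were every col gene with a thresholded promoter summit, the 25 of highest signal and 19 by name. Also named were the 3 highest of each list of other genes, and the col genes on either side of the threshold. The names ram-4, sqt-8 and let-7 matched no protein-coding gene. Alternatives changed the list, the replicate, the window, the overlap rule, the IDR limit and the genes kept.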

Additional observations from a re-analysis of the deposited data

How the results depend on the processing

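The share of col genes with a ranked peak, 71.8% in the true-replicate list, was 51.92 to 60.26% in the lists of 1 replicate, against 50.8 to 55.2% of all protein-coding genes there. It was 44.2% in a window of 500 bp upstream to 100 bp downstream and 82.1% where any overlap of the peak with the window counted. The shares of all protein-coding genes under these rules are not given here, and a smaller window can hold fewer summits at any gene. The count of col genes with a thresholded summit, 1, was 0 without either replicate and 0 at an IDR of 0.001. It was 2 by overlap, with col-85 added, and 4 in the pooled list at an IDR of 0.05. The median signal, 21.66, was 12.85 to 15.14 in the lists of 1 replicate and 17.46 in the smaller window, where 5.13% of col genes lay in the top 10%. The median summit position, -450.5 bp, was -403 bp in the pooled list, -396 to -373 bp in the lists of 1 replicate, -220 bp in the smaller window, -310 bp by overlap, -378 bp without shared promoters and -471 bp in genes with 1 start. The difference in GTCT density, 0.0268 per 100 bp, was -0.08663 to -0.01597 in the lists of 1 replicate and 0.078 by overlap. The settings of 1 start, and of the pooled list at an IDR of 0.05, were chosen after seeing the data. The cause of these shifts was not tested, apart from the smaller or wider area searched. No paired analysis was possible because the 2 replicates form 1 group. Depth is unknown, and 2 replicates limit every value.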
